A study of Caenorhabditis elegans with 12 samples.

Results

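The genes described here are the neuropeptide genes of Caenorhabditis elegans that carry the symbols flp (FMRFamide-like peptide) or nlp (neuropeptide-like protein) followed by a number. They were chosen by symbol from the array's annotation, and the epidermal peptides nlp-24 to nlp-34 were left out because they belong mainly to the skin's defence response. Of the 10365 genes tested in all, 62 were members, 23 of them flp and 39 nlp genes. A further 11 members had a probe set but did not reach a log2 value of 4 on at least 3 of the 12 arrays. These were flp-23, flp-27, nlp-2, nlp-22, nlp-23, nlp-39, nlp-45, nlp-52, nlp-60, nlp-68 and nlp-90. Of the 62 tested members, 56 reached 4 on all 12 arrays, the others being flp-32, nlp-5, nlp-15, nlp-53, nlp-62 and nlp-67. For 19 of the 62, the name of the probe set marks that its probes may also bind related transcripts.

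RNA from pools of 3000 whole worms at the L4 stage, the last larval stage, was hybridised to Affymetrix arrays, 3 arrays per strain. The strain labelled crh-1 null carries crh-1 (nn3315), in the gene for the transcription factor CREB. The strain labelled tax-6 null is RB1667 with tax-6(ok2065), in the gene for the catalytic subunit of the phosphatase calcineurin. The strain labelled aak-2 o/e is AGD383, N2 worms with the transgene uthIs202. In it the aak-2c promoter drives residues 1 to 321 of AAK-2, a catalytic AMPK subunit, fused to Tomato, with a rol-6 marker that alters the cuticle and movement. One label field of the aak-2 o/e samples reads null instead, while their titles and strain entries describe overexpression. WT was N2, the laboratory wild type. All worms were fed OP50 bacteria, 750 first-stage larvae to a plate, and each strain was frozen at times meant to allow for its own speed of development.

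Neuropeptide genes encode precursors that are cut and trimmed inside dense-core vesicles, and many of the resulting peptides are amidated before release. Most neurons of the worm make several of them, and most act through G protein-coupled receptors at a distance from the synapse. They are known in this animal for setting states such as sleep, arousal, feeding and egg laying, and for carrying signals between the nervous system and the gut.

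The probe sets of the altered genes did not all follow the labels. The detected crh-1 probe set read 8.61, 8.43 and 8.81 on the arrays labelled crh-1 null, against 7.06, 7.18 and 7.24 on the WT arrays, so it was higher where the label says null. The tax-6 probe set was dim on every array. The aak-2 probe set with the highest values read 8.89, 8.43 and 8.46 on the arrays labelled aak-2 o/e, against 9.20, 9.18 and 8.62 on the WT arrays. Another tested aak-2 probe set read 6.47, 6.28 and 6.58 on the aak-2 o/e arrays, against 6.80, 7.01 and 6.92 on the WT arrays. It was thus lower where the label says overexpression. Where these probe sets lie relative to the altered parts of the genes was not analysed here, and strains are named below by their labels. Stage genes also differed, and not all in the same order. The adult cuticle collagen col-19 read 12.3, 12.0 and 12.3 in tax-6 null, against 4.10, 5.25 and 4.34 in WT, and aak-2 o/e lay between them at 10.3, 9.22 and 10.3. Of the 5 tested vit genes, which encode yolk proteins, vit-2 rose by 2.78 and vit-1 fell by 2.66 in tax-6 null against WT, vit-4, vit-5 and vit-6 did not pass, and all 5 were lower in tax-6 null than in aak-2 o/e (limma, adjusted p under 0.05). Correlations between arrays of 1 strain lay between 0.974 and 0.995 over all tested probe sets.

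The main result concerned tax-6 null, in which nearly the whole set of neuropeptide genes was raised. Of the 62 members, 53 rose against WT, 1 fell and 8 did not pass the test (limma, Benjamini-Hochberg adjusted p under 0.05, fitted over all probe sets). Over all genes tested 18.7% rose and 26.3% fell in the same comparison. Among flp genes 22 rose and 1 did not pass, with a median log2 change of 1.42. Among nlp genes 31 rose, 1 fell and 7 did not pass, with a median of 1.25, beside a median of -0.09 for all genes tested. In both families most rises were 2-fold or more by the fitted change, in 19 flp and 25 nlp genes, against 9.3% of all genes. The 25 include nlp-62 and nlp-67, whose WT arrays all lay below 4. As lower bounds these 2 rises were only 1.49-fold and 1.27-fold. The 3 tax-6 null arrays lay wholly outside the range of the 3 WT arrays for 23 flp and 33 nlp genes, and for 54.5% of all genes tested. These nlp counts include nlp-67, which passed the filter only through its tax-6 null arrays and so had to differ. They also include nlp-5 and nlp-62, which would not have passed the filter without their tax-6 null arrays. The calls, bounds and lack of overlap of these genes are therefore no result. With no filter on low values, 22 of 25 flp genes rose, and 33 of 48 nlp genes rose and 1 fell. In RNA of whole animals, fewer cells of a type and less RNA per cell cannot be told apart, and the same holds for more.

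**Figure D1:**
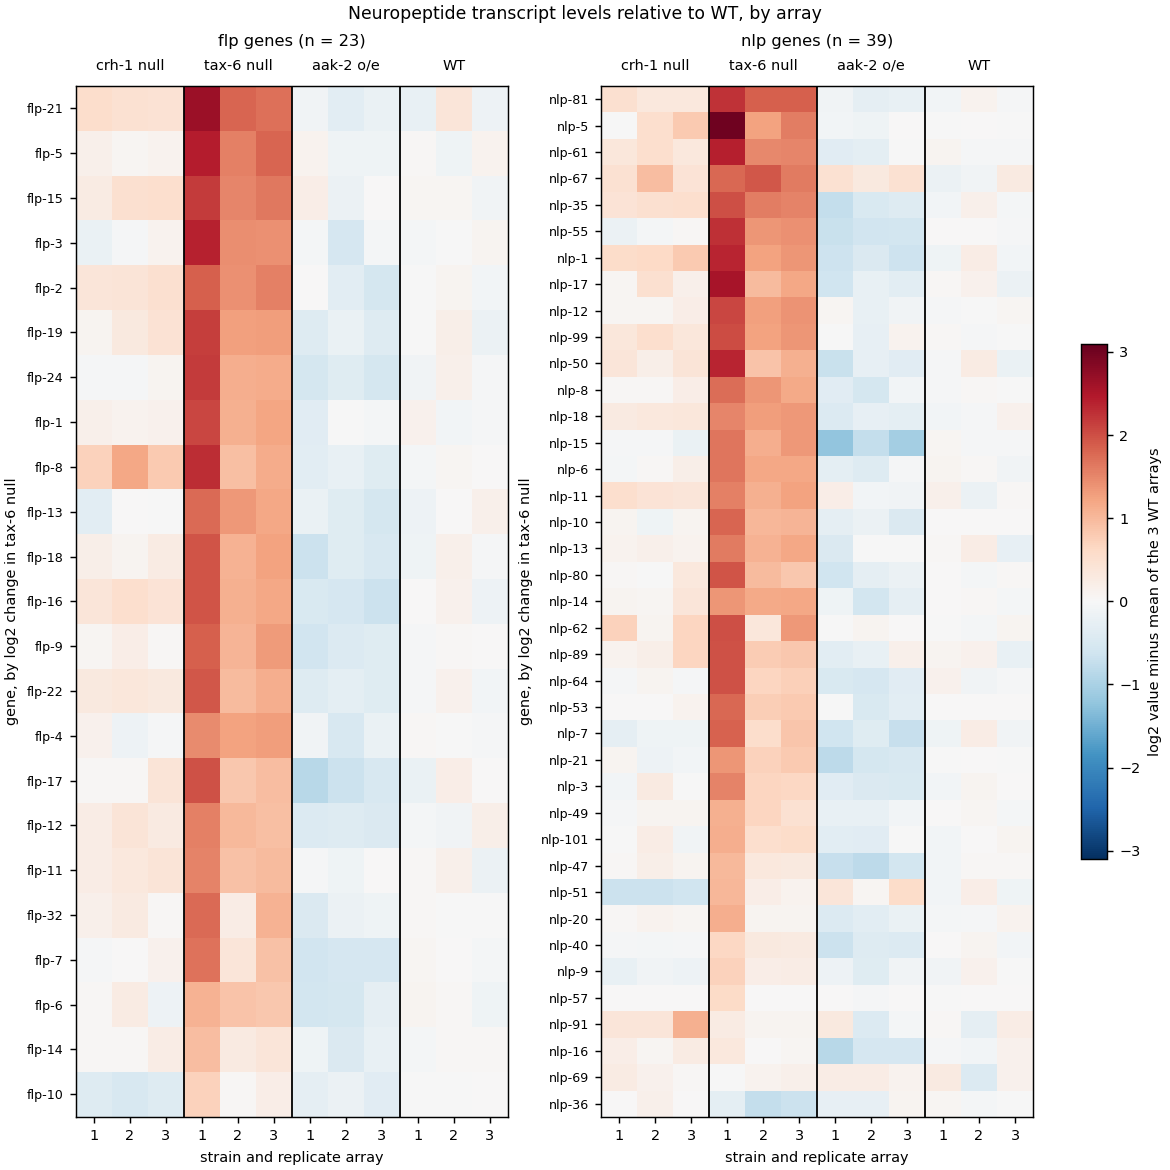
Log2 values of 23 flp genes (left) and 39 nlp genes (right) on each of the 12 arrays, minus the mean of the 3 WT arrays; rows are genes ordered by their change in tax-6 null, columns are arrays, red is above WT and blue below. The 3 tax-6 null columns are red for nearly all rows, strongest on replicate 1, while crh-1 null columns are pale and aak-2 o/e columns mostly light blue.

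The 3 tax-6 null arrays were not equally high. The median flp gene lay 1.93, 1.07 and 1.19 above the WT mean on replicates 1, 2 and 3, and the median nlp gene 1.66, 0.88 and 1.05 above it. Replicate 1 was the highest of the 3 for 60 of the 62 members. Without it, the medians were 1.15 for flp and 0.91 for nlp genes, and again 53 members rose and 1 fell. On that array the muscle markers had a median of -0.62 relative to WT, against -0.14 and -0.23 on the other tax-6 null arrays, and the germline markers -0.57, against 0 and -0.03. Their part in the higher neuropeptide values of replicate 1 was not tested.

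Among the flp genes, the 5 with the largest rise in tax-6 null were flp-21, flp-5, flp-15, flp-3 and flp-2. Here and below, genes named for the largest changes of a comparison were picked among those whose arrays did not overlap. Lack of overlap in them is therefore no result. Levels are log2 values on each array, changes are differences of strain means with the standard error of the fit, and adjusted p-values are limma's after Benjamini-Hochberg adjustment. Transcripts of flp-21, whose peptide is a ligand of the receptor NPR-1 that governs aggregation and foraging, read 7.18, 6.32 and 6.23 in tax-6 null, against 4.29, 4.91 and 4.37 in WT. Even the lowest tax-6 null array lay above the highest WT array, and the change was 2.06 ± 0.23 (adjusted p = 2.21e-05). The gene flp-5 read 11.38, 10.52 and 10.76 in tax-6 null, against 8.99, 8.82 and 9.06 in WT, a change of 1.93 ± 0.18 (adjusted p = 5.65e-06). For flp-15 the values were 10.05, 9.41 and 9.52 in tax-6 null, against 7.94, 7.94 and 7.78 in WT. Both flp-5 and flp-15 thus had WT arrays close together and tax-6 null arrays more than 1 log2 unit higher, and flp-15 rose by 1.77 ± 0.17 (adjusted p = 5.97e-06). The gene flp-3 read 9.63, 8.68 and 8.66 in tax-6 null, against 7.17, 7.22 and 7.32 in WT, a change of 1.75 ± 0.23 (adjusted p = 8.47e-05). The arousal peptide gene flp-2 read 8.99, 8.54 and 8.68 in tax-6 null, against 7.12, 7.21 and 7.04 in WT, a change of 1.61 ± 0.15 (adjusted p = 6.04e-06). In neither gene did any array of one strain reach the other's range.

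The 5 nlp genes with the largest fitted changes in tax-6 null were nlp-81, nlp-5, nlp-61, nlp-67 and nlp-35, and since the WT arrays of nlp-5 and nlp-67 all lay below 4, these changes have only a lower bound and no rank. The values of nlp-81 were 7.79, 7.42 and 7.41 in tax-6 null, against 5.48, 5.67 and 5.51 in WT. Its arrays were tight in both strains, and the change of 1.98 ± 0.12 had the smallest adjusted p of all members (1.88e-07). The gene nlp-5 read 6.70, 4.92 and 5.27 in tax-6 null, against 3.68, 3.69 and 3.68 in WT, and at that level, near where the values lose their scale, the difference is given as at least 3.09-fold (adjusted p = 0.000917). In the same way nlp-67, at 4.35, 4.50 and 4.18 in tax-6 null, against 2.40, 2.46 and 2.85 in WT, was at least 1.27-fold higher (adjusted p = 5.48e-06). Both were low genes whose arrays did not overlap between the strains. However, nlp-67 passed the filter only through its 3 tax-6 null arrays and so had to differ. In nlp-5 no WT or aak-2 o/e array and not all crh-1 null arrays reached 4. It would thus not have passed the filter without its tax-6 null arrays. The p-values, bounds and lack of overlap of both genes are therefore no result. The gene nlp-61 read 9.11, 8.17 and 8.21 in tax-6 null, against 6.78, 6.65 and 6.65 in WT, a change of 1.81 ± 0.21 (adjusted p = 3.27e-05). Finally nlp-35 read 8.44, 8.03 and 7.98 in tax-6 null, against 6.37, 6.60 and 6.38 in WT, a change of 1.70 ± 0.14 (adjusted p = 1.96e-06).

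**Figure D2:**
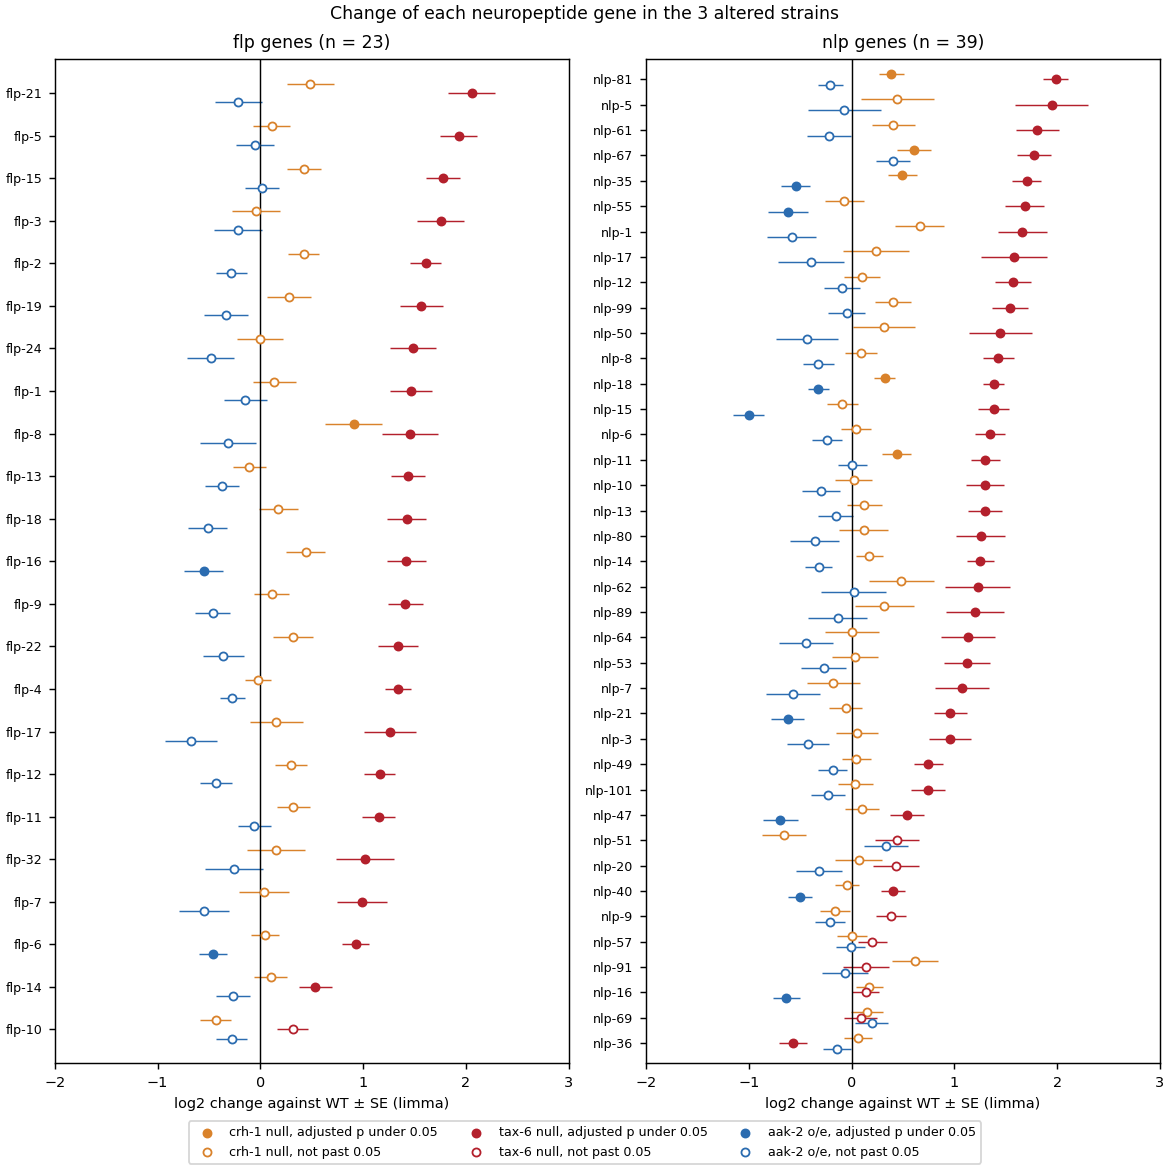
Log2 change against WT with its standard error (limma, 3 arrays per strain) for each flp gene (left) and nlp gene (right) in the altered strains, with crh-1 null in orange, tax-6 null in red, aak-2 o/e in blue; filled points have an adjusted p under 0.05 and open points do not. Red tax-6 null points run up to 2.06 for flp-21 and 1.98 for nlp-81, while only nlp-36 is a filled red point left of 0.

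One member fell. The transcript of nlp-36 read 10.71, 10.27 and 10.36 in tax-6 null, against 11.08, 10.96 and 11.002 in WT. All 3 tax-6 null arrays lay below all WT arrays, by a mean log2 change of -0.57 ± 0.14 (limma, adjusted p = 0.00517). The 8 members that did not pass were flp-10, nlp-9, nlp-16, nlp-20, nlp-51, nlp-57, nlp-69 and nlp-91, with log2 changes between 0.09 for nlp-69 and 0.44 for nlp-51. Rises were not limited to dim or bright genes: 28 of the 32 members with a mean log2 value of at least 8 rose, with a median change of 1.32, and 25 of the 30 below 8 rose, with a median of 1.24. Of the 8 genes with more than 1 tested probe set, all 8 gave the same sign in each of their probe sets and 6 the same call. The largest gap in log2 change between probe sets of 1 gene was 0.66, for flp-15. The rises of flp-14, nlp-40 and nlp-47 did not pass once 1 WT array was left out (limma, adjusted p = 0.058 and 0.0657 for flp-14 and nlp-47 without WT replicate 1, and 0.0601 for nlp-40 without WT replicate 3), while nlp-9 passed without tax-6 null replicate 2 or 3 and flp-10 without replicate 2.

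Genes were also read by the role of their peptides, from lists of known functions. Of the 21 tested genes of these lists 19 rose in tax-6 null, beside 53 of the 62 members and 18.7% of all genes. That is near the share of all members, so the counts by role below give no result about any role. Of the sleep and quiescence genes 6 were tested, nlp-22 being too dim, and all 6 rose in tax-6 null, with a median log2 change of 1.34. The gene flp-11, which encodes the peptide of the sleep neuron RIS, read 10.34, 9.71 and 9.78 in tax-6 null, against 8.83, 8.95 and 8.61 in WT, a change of 1.15 ± 0.16 (limma, adjusted p = 0.000114). The genes flp-13, flp-24 and nlp-8 act in the ALA neuron, which puts worms to sleep after cellular stress. Values of flp-13 were 8.25, 7.85 and 7.70 in tax-6 null, against 6.33, 6.51 and 6.65 in WT, a change of 1.44 ± 0.16 (adjusted p = 2.44e-05). Values of flp-24 were 11.64, 10.59 and 10.62 in tax-6 null, against 9.35, 9.61 and 9.43 in WT, a change of 1.49 ± 0.23 (adjusted p = 0.000235). Values of nlp-8 were 9.02, 8.64 and 8.46 in tax-6 null, against 7.25, 7.31 and 7.27 in WT, a change of 1.43 ± 0.15 (adjusted p = 1.65e-05). The 3 ALA genes were thus raised by similar amounts, and none had overlapping arrays. The orcokinin-like gene nlp-14 read 6.23, 6.05 and 6.07 in tax-6 null, against 4.89, 4.90 and 4.81 in WT, a change of 1.25 ± 0.13 (adjusted p = 1.39e-05). The smallest rise of the group was that of flp-14, at 7.63, 6.98 and 7.06 in tax-6 null, against 6.62, 6.72 and 6.72 in WT (0.54 ± 0.16, adjusted p = 0.018).

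The arousal and locomotion genes rose as well, 6 of 6 tested with a median log2 change of 1.52. Besides flp-2 and flp-21, given above, they included flp-1, the peptide gene of the AVK neurons that shapes body bends. It read 12.34, 11.40 and 11.51 in tax-6 null, against 10.42, 10.20 and 10.24 in WT, a change of 1.46 ± 0.21 (limma, adjusted p = 0.000135). The other NPR-1 ligand gene, flp-18, read 10.73, 9.85 and 10.03 in tax-6 null, against 8.65, 8.94 and 8.74 in WT, a change of 1.42 ± 0.19 (adjusted p = 9.42e-05). Both ligand genes of NPR-1 were therefore higher on every tax-6 null array than on any WT array. The cholecystokinin-like gene nlp-12, made by the stretch-sensing neuron DVA, read 9.28, 8.49 and 8.60 in tax-6 null, against 7.18, 7.20 and 7.28 in WT, a change of 1.57 ± 0.18 (adjusted p = 2.35e-05). The locomotor arousal gene nlp-49 read 9.24, 8.81 and 8.60 in tax-6 null, against 8.14, 8.18 and 8.08 in WT, a smaller change of 0.75 ± 0.14 (adjusted p = 0.00114). Its arrays too did not overlap.

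Of the 5 genes acting in egg laying or the gut, 4 rose in tax-6 null, with a median log2 change of 0.95. The peptides of flp-10 and flp-17 are both ligands of the receptor EGL-6, through which they inhibit egg laying. The gene flp-17 read 10.07, 8.93 and 9.05 in tax-6 null, against 7.88, 8.28 and 8.09 in WT, a change of 1.26 ± 0.25 (limma, adjusted p = 0.00168). For flp-10 the values were 9.15, 8.47 and 8.64 in tax-6 null, against 8.43, 8.43 and 8.46 in WT, a change of 0.31 ± 0.15 that did not pass (adjusted p = 0.109). The pair thus differed in whether it passed, and the difference between them was not tested. The gene nlp-3, whose peptides act with serotonin in the egg-laying neuron HSN, read 9.57, 8.70 and 8.67 in tax-6 null, against 7.94, 8.10 and 8.03 in WT (0.95 ± 0.20, adjusted p = 0.00258). Transcripts of nlp-7 read 9.28, 7.97 and 8.29 in tax-6 null, against 7.31, 7.67 and 7.33 in WT (1.08 ± 0.26, adjusted p = 0.00556). Both were highest on replicate 1. The intestinal gene nlp-40, whose peptide times the defecation cycle, read 12.16, 11.81 and 11.81 in tax-6 null, against 11.53, 11.60 and 11.44 in WT. Its rise of 0.41 ± 0.12 was the smallest among the members that rose (adjusted p = 0.016).

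Of 4 genes of sensory neurons and metabolism, 3 rose in tax-6 null, with a median log2 change of 0.96. The gene flp-6, made by the thermosensory neuron AFD and tied to CRH-1 in the control of lifespan by temperature, read 9.74, 9.55 and 9.50 in tax-6 null, against 8.75, 8.71 and 8.55 in WT, a change of 0.93 ± 0.13 (limma, adjusted p = 0.000162). Its 3 tax-6 null arrays were closer together than those of most members. The gene flp-7, whose peptide drives fat loss downstream of serotonin, read 9.40, 8.08 and 8.63 in tax-6 null, against 7.76, 7.73 and 7.64 in WT (0.99 ± 0.24, adjusted p = 0.00578). The gene nlp-1, made by the olfactory neuron AWC, read 9.32, 8.21 and 8.33 in tax-6 null, against 6.83, 7.18 and 6.88 in WT (1.66 ± 0.24, adjusted p = 0.000154). All 3 genes separated the strains on every array. For nlp-9 the probe set used read 10.01, 9.48 and 9.50 in tax-6 null, against 9.17, 9.43 and 9.26 in WT, and did not pass (0.38 ± 0.15, adjusted p = 0.052), while a second nlp-9 probe set was 0.70 higher and passed.

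In crh-1 null, most neuropeptide genes stayed close to their WT levels. Of the 23 flp genes 1 rose and 22 did not pass, and of the 39 nlp genes 5 rose and 34 did not pass, where 9.88% of all genes rose and 10.7% fell. The median log2 changes were 0.15 for flp and 0.10 for nlp genes, beside -0.01 for all genes. The fitted change was above 0 in 18 flp and 32 nlp genes, beside 4983 of the 10365 genes tested. The arrays of the strains did not overlap for 9 flp and 11 nlp genes, beside 43% of all genes. Among the 8 genes with more than 1 tested probe set, 7 gave the same sign in each of their probe sets and 8 the same call.

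The 1 flp gene that rose in crh-1 null was flp-8, at 9.75, 10.24 and 9.87 in crh-1 null, against 8.97, 9.11 and 9.06 in WT. It lay higher on every crh-1 null array, by 0.91 ± 0.27 (limma, adjusted p = 0.0361). Of the nlp genes, nlp-67 read 3.03, 3.52 and 2.99 in crh-1 null, against 2.40, 2.46 and 2.85 in WT, all below 4, so no fold is given (adjusted p = 0.0216). The others were small rises. The gene nlp-35 read 6.88, 6.96 and 6.98 in crh-1 null, against 6.37, 6.60 and 6.38 in WT (0.49 ± 0.14, adjusted p = 0.0268). The gene nlp-11 read 8.76, 8.67 and 8.63 in crh-1 null, against 8.40, 8.07 and 8.29 in WT (0.44 ± 0.14, adjusted p = 0.0488). Each of these had arrays of the strains apart, by less than 1 log2 unit. Values of nlp-81 were 6.05, 5.89 and 5.88 in crh-1 null, against 5.48, 5.67 and 5.51 in WT (0.39 ± 0.12, adjusted p = 0.0449). Values of nlp-18 were 9.11, 9.16 and 9.19 in crh-1 null, against 8.74, 8.79 and 8.96 in WT (0.32 ± 0.10, adjusted p = 0.0484). None of the 6 rises passed in every fit that left out 1 of the 12 arrays. Without tax-6 null replicate 1, which takes part in the shared estimate of the spread, 8 flp and 8 nlp genes were called higher in crh-1 null, and 1 of each lower. The share of all genes called in that fit is not given here, so these counts give no result about the members.

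Of the 21 tested genes of the sleep, arousal, egg-laying and sensory lists, 0 passed in crh-1 null with limma, and 3 had an unadjusted p under 0.05, flp-2 and nlp-1 above WT and flp-10 below it. The thermosensory gene flp-6 read 8.71, 8.93 and 8.50 in crh-1 null, against 8.75, 8.71 and 8.55 in WT, overlapping throughout, with a change of 0.04 and a 95% interval of -0.249 to 0.337 (limma, adjusted p = 0.897). The largest drops that did not pass were those of nlp-51, at 7.26, 7.27 and 7.31 in crh-1 null, against 7.84, 8.15 and 7.81 in WT (-0.66 ± 0.22, adjusted p = 0.0523), and of flp-10 at -0.44 ± 0.15 (adjusted p = 0.0618). In both genes the crh-1 null arrays lay below all WT arrays.

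**Figure D3:**
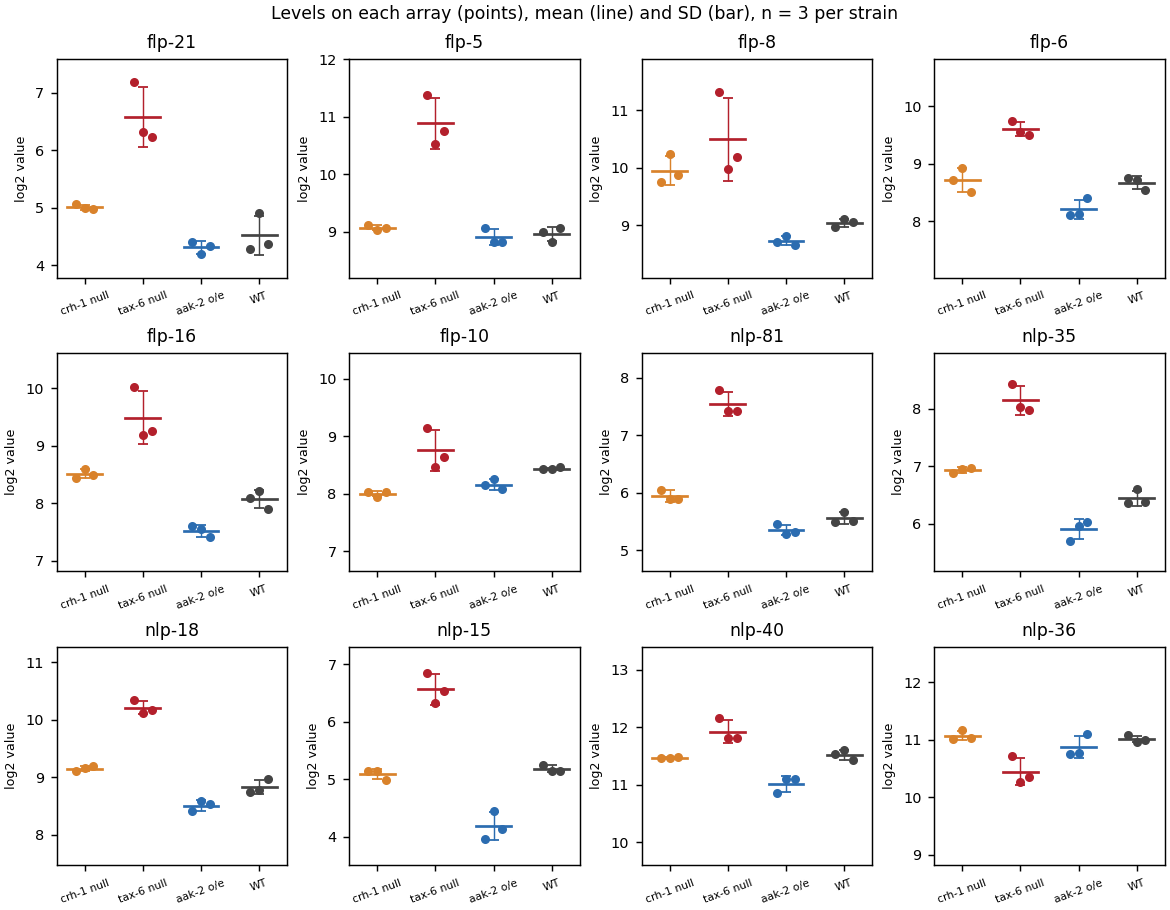
Log2 values of 12 members on each array (points), with the mean (line) and SD (bar) of the 3 arrays of crh-1 null, tax-6 null, aak-2 o/e and WT; every panel spans the same log2 range, and levels are not comparable between panels. The tax-6 null mean is the highest in every panel except nlp-36, where it is the lowest. The aak-2 o/e points lie below WT for nlp-15, nlp-40, nlp-35, nlp-18, flp-16 and flp-6, and also for flp-8, flp-10 and nlp-81, which did not pass.

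In aak-2 o/e, the neuropeptide genes leaned the other way, by small amounts. Of the 23 flp genes 2 fell and 21 did not pass, and of the 39 nlp genes 8 fell and 31 did not pass, while none rose with limma, where 1 gene above WT, nlp-67, had an unadjusted p under 0.05. Over all genes 14.2% rose and 19.3% fell. The called falls were near or below that share, so their count gives no result about the members. The median log2 changes were -0.31 for flp and -0.27 for nlp genes, beside -0.15 for all genes. Only 1 flp and 5 nlp genes had a fitted change above 0, beside 3474 of the 10365 genes tested. The arrays did not overlap for 16 flp and 23 nlp genes, beside 52.5% of all genes. The aak-2 o/e arrays were alike, with a flp median of -0.35, -0.37 and -0.36 relative to WT. Of the 8 genes with more than 1 tested probe set, only 5 gave the same sign in each of their probe sets and 7 the same call. The largest gap between probe sets of 1 gene was 0.61, for flp-2.

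The largest fall in aak-2 o/e was that of the orcokinin-like gene nlp-15, at 3.97, 4.45 and 4.13 in aak-2 o/e, against 5.25, 5.15 and 5.15 in WT. Every aak-2 o/e array lay below every WT array, with a change of -1.003 ± 0.15 (limma, adjusted p = 0.000323). The gonadotropin-releasing-hormone-like gene nlp-47 read 8.10, 8.02 and 8.26 in aak-2 o/e, against 8.73, 8.86 and 8.86 in WT (-0.69 ± 0.17, adjusted p = 0.00759). Transcripts of nlp-16 read 6.47, 6.81 and 6.80 in aak-2 o/e, against 7.29, 7.24 and 7.45 in WT (-0.63 ± 0.13, adjusted p = 0.0029). It was the only member that passed in aak-2 o/e and in neither other strain. The intestinal gene nlp-40 read 10.86, 11.11 and 11.09 in aak-2 o/e, against 11.53, 11.60 and 11.44 in WT (-0.50 ± 0.12, adjusted p = 0.00716). Smaller or noisier falls were those of nlp-21 (-0.62), nlp-55 (-0.62), nlp-35 (-0.54) and nlp-18 (-0.32).

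The 2 flp genes that fell were flp-16 and flp-6. Values of flp-16 were 7.60, 7.56 and 7.41 in aak-2 o/e, against 8.09, 8.22 and 7.91 in WT (-0.55 ± 0.19, limma, adjusted p = 0.0457). Values of flp-6 were 8.10, 8.13 and 8.40 in aak-2 o/e, against 8.75, 8.71 and 8.55 in WT (-0.46 ± 0.13, adjusted p = 0.0212). In both the strains were apart on all arrays. The sleep and arousal lists had 0 members past the threshold, with 2 (flp-13 and nlp-14) and 1 (flp-18) below WT at an unadjusted p under 0.05, while the egg-laying list had nlp-40 and the sensory list flp-6. The EGL-6 ligand gene flp-17 had a larger but noisier difference, at 7.22, 7.43 and 7.58 in aak-2 o/e, against 7.88, 8.28 and 8.09 in WT, that did not pass (-0.67 ± 0.25, adjusted p = 0.0627). With tax-6 null replicate 1 left out of the fit, whose estimate of the spread all strains share, 12 flp and 15 nlp genes passed as lower in aak-2 o/e. Without the share of all genes called in that fit, which is not given here, these counts too give no result about the members.

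Across the 4 strains the means of many members followed 1 order. The mean was highest in tax-6 null for 23 of 23 flp and 35 of 39 nlp genes, and lowest in aak-2 o/e for 21 flp and 33 nlp genes. The full order tax-6 null, crh-1 null, WT, aak-2 o/e held for the means of 17 flp and 25 nlp genes, although most of the steps around WT did not pass a test. The shares of all genes with this order or these extremes are not given here, so the counts cannot be set against them. The place of crh-1 null also depended on scaling. With each array centred on markers of all neurons, its medians against WT were -0.09 for flp and -0.14 for nlp genes. The 3 comparisons with WT share the WT arrays. Only nlp-18 and nlp-35 passed against WT in all 3 strains, higher in crh-1 null and tax-6 null and lower in aak-2 o/e. The tax-6 null arrays put nlp-18 at 10.34, 10.13 and 10.17, the aak-2 o/e arrays at 8.41, 8.59 and 8.53, and WT at 8.74, 8.79 and 8.96, with no overlap between any of the strains. The change of nlp-18 was 1.38 ± 0.10 in tax-6 null (limma, adjusted p = 9.72e-07) and -0.32 ± 0.10 in aak-2 o/e (adjusted p = 0.033), beside the rise in crh-1 null given above. Higher in tax-6 null and lower in aak-2 o/e, with no call in crh-1 null, were flp-6, flp-16, nlp-15, nlp-21, nlp-40, nlp-47 and nlp-55.

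Set directly against crh-1 null, tax-6 null was higher for 21 of 23 flp and 31 of 39 nlp genes and lower for 1, with medians of 1.19 and 1.09, beside -0.08 for all genes, of which 16.6% were higher and 21.4% lower. The flp genes furthest apart were flp-5 (1.82 ± 0.18), flp-3 (1.79 ± 0.23) and flp-21 (1.57 ± 0.23). Levels of flp-5 in crh-1 null were 9.11, 9.02 and 9.06, those of flp-3 were 7.04, 7.20 and 7.35, and those of flp-21 were 5.06, 4.99 and 4.98. All lay below the tax-6 null arrays given above. Among nlp genes the gap was widest for nlp-55 (1.75 ± 0.19), which read 10.07, 9.18 and 9.22 in tax-6 null, against 7.63, 7.74 and 7.84 in crh-1 null. It was followed by nlp-81 (1.60 ± 0.12) and nlp-5 (1.502 ± 0.36), and nlp-5 read 3.68, 4.21 and 4.49 in crh-1 null. Since nlp-5 would not have passed the filter without its tax-6 null arrays, its difference is no result. The gene nlp-36 was again lower in tax-6 null, with crh-1 null at 11.01, 11.17 and 11.03 (-0.63 ± 0.14, limma, adjusted p = 0.00354). The flp genes that did not pass were flp-8 and flp-14.

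Set against aak-2 o/e, tax-6 null was higher for all 23 flp genes and 34 of 39 nlp genes and lower for 1, with medians of 1.77 and 1.57, beside 0.05 for all genes, of which 27.6% were higher and 22.4% lower. The widest gap of any member was that of nlp-15, at 6.85, 6.32 and 6.53 in tax-6 null, against 3.97, 4.45 and 4.13 in aak-2 o/e (2.38 ± 0.15). It was followed among nlp genes by nlp-55 (2.30 ± 0.19), with 7.12, 7.20 and 7.23 in aak-2 o/e, and nlp-35 (2.25 ± 0.14), with 5.71, 5.97 and 6.04 there. The flp genes furthest apart were flp-21 (2.27 ± 0.23), flp-5 (1.98 ± 0.18) and flp-24 (1.97 ± 0.23), the stress-sleep gene. In aak-2 o/e these read 4.41, 4.19 and 4.33 for flp-21, 9.06, 8.83 and 8.83 for flp-5, and 8.93, 9.09 and 8.92 for flp-24. These 6 genes were picked among those without overlap of arrays. The gene nlp-36 was lower in tax-6 null, with aak-2 o/e at 10.75, 10.77 and 11.10 (-0.42 ± 0.14, limma, adjusted p = 0.0217).

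Between crh-1 null and aak-2 o/e, 11 of 23 flp genes were higher in crh-1 null, and 15 of 39 nlp genes were higher and 1 lower, with medians of 0.50 and 0.46. Over all genes 27.4% were higher and 19% lower, with a median of 0.15. The largest flp differences were those of flp-8 (1.22 ± 0.27), flp-16 (0.99 ± 0.19) and flp-17 (0.83 ± 0.25). The values of flp-8 were 9.75, 10.24 and 9.87 in crh-1 null, against 8.72, 8.82 and 8.66 in aak-2 o/e. Those of flp-16 were 8.45, 8.60 and 8.49 in crh-1 null, against 7.60, 7.56 and 7.41 in aak-2 o/e. In both genes the arrays were well apart. For flp-17 they were 8.12, 8.12 and 8.48 in crh-1 null, against 7.22, 7.43 and 7.58 in aak-2 o/e. The AWC peptide gene nlp-1 differed most among nlp genes, at 7.53, 7.58 and 7.77 in crh-1 null, against 6.31, 6.51 and 6.32 in aak-2 o/e (1.24 ± 0.24, limma, adjusted p = 0.00103). The next were nlp-35 (1.03 ± 0.14) and nlp-15 (0.91 ± 0.15). The 1 gene lower in crh-1 null was nlp-51, at 7.26, 7.27 and 7.31, against 8.30, 8.002 and 8.50 in aak-2 o/e (-0.99 ± 0.22, adjusted p = 0.00264).

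The machinery that makes and carries the peptides was read beside the peptide genes. Of 11 processing genes, 5 rose and 3 fell in tax-6 null, with a median log2 change of 0.27, where 18.7% of all genes rose and 26.3% fell. Those that rose were egl-3, the proprotein convertase (1.30 ± 0.16), its helper sbt-1 (1.22 ± 0.16), the carboxypeptidase egl-21 (1.09 ± 0.13), and the amidation genes pghm-1 (1.29 ± 0.16) and pgal-1 (1.11 ± 0.16). Those that fell were aex-5, a convertase that acts in the gut (-1.59 ± 0.24), cpd-1 (-1.03 ± 0.15) and bli-4, a convertase needed for the cuticle (-0.60 ± 0.12). The convertase gene kpc-1 (0.23), the amidation gene pamn-1 (-0.23) and cpd-2 (0.27) did not pass (limma, adjusted p = 0.310, 0.261 and 0.178). In crh-1 null bli-4 fell by 0.49 and no processing gene rose, and in aak-2 o/e cpd-1 fell by 0.98 and bli-4 by 0.55 while none rose. Of 11 dense-core vesicle genes, 3 rose in tax-6 null: cab-1 (1.30 ± 0.13), ida-1 (0.52 ± 0.16) and unc-104, the kinesin that carries vesicles along axons (0.55 ± 0.15). In crh-1 null 2 rose, unc-104 by 0.52 and cab-1 by 0.42, and in aak-2 o/e unc-104 alone fell, by 0.49, with arrays that overlapped those of WT. Over all genes 18.7% rose in tax-6 null, 9.88% rose in crh-1 null and 19.3% fell in aak-2 o/e, so the counts of this list give no result about it.

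Of the neuropeptide genes outside the flp and nlp names 5 were tested, and 3 of them rose in tax-6 null on arrays that reached 4 in all strains. The pigment-dispersing factor genes pdf-1 and pdf-2, which promote roaming, rose by 1.21 ± 0.15 and 1.45 ± 0.24 in tax-6 null, and snet-1 rose by 0.83 ± 0.11, while lury-1 did not pass (0.30 ± 0.13, limma, adjusted p = 0.0857). The gene capa-1 read 6.37, 4.93 and 5.10 in tax-6 null, against 2.72, 2.63 and 2.77 in WT, at least 2.77-fold higher, but it passed the filter only through its tax-6 null arrays and so had to differ. None of the 5 passed in crh-1 null, and in aak-2 o/e pdf-1 fell by 0.55. Of 101 receptor genes only 19 were bright enough to test. In tax-6 null 6 rose and 3 fell, in crh-1 null 5 rose and 2 fell, and in aak-2 o/e none rose and 5 fell, beside the shares of all genes given above for each strain. The receptor gene npr-41 was lower in each altered strain, at least 4.88-fold in crh-1 null, with a log2 change of -1.87 ± 0.26 in tax-6 null, and with -1.93 ± 0.26 in aak-2 o/e. The gene dmsr-1 was higher in tax-6 null (0.76 ± 0.17) and in crh-1 null (0.73 ± 0.17). Dim receptor genes are given as bounds: npr-36 was at least 1.12-fold higher in tax-6 null and 1.11-fold in crh-1 null, frpr-18 at least 1.497-fold higher in tax-6 null, and npr-37 at least 1.62-fold higher in crh-1 null, through whose 3 arrays alone it passed the filter. In aak-2 o/e frpr-17 was at least 1.27-fold lower, and dmsr-8 and trhr-1 fell by 0.52 and 0.58 on the log2 scale.

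**Figure D4:**
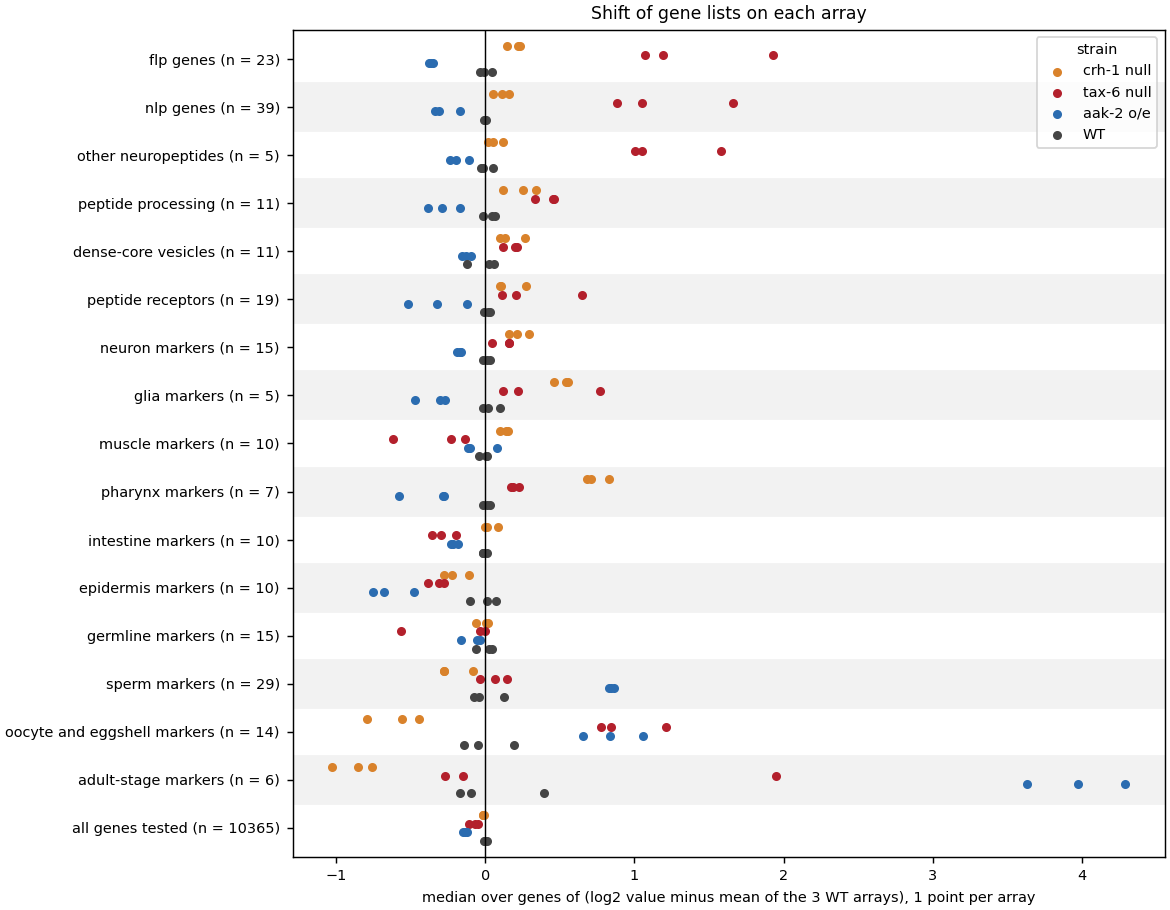
Median over the genes of a list of the log2 value minus the mean of the 3 WT arrays, 1 point per array, for crh-1 null, tax-6 null, aak-2 o/e and WT; n is the number of tested genes in each list. On the tax-6 null arrays the flp medians run between 1.07 and 1.93 and the nlp medians between 0.88 and 1.66, while the neuron markers lie between 0.04 and 0.16; aak-2 o/e stands out in the adult-stage and sperm markers.

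Markers of all neurons had a smaller median change than the peptide genes in tax-6 null. Of 20 such markers 15 were tested, unc-10, rgef-1, maco-1, aex-3 and unc-33 being too dim, and 3 rose and 1 fell, with a median log2 change of 0.11, where 18.7% of all genes rose and 26.3% fell. The summed level of the 15, on the log2 scale, lay between 13.13 and 13.23 in tax-6 null, 13.29 and 13.30 in crh-1 null, 12.72 and 12.95 in aak-2 o/e, and 13.15 and 13.16 in WT. In crh-1 null 5 neuron markers rose and none fell (median 0.25), beside 9.88% and 10.7% of all genes, and in aak-2 o/e none rose and 4 fell (median -0.15), beside 14.2% and 19.3%. The 3 markers that rose in tax-6 null were thus a share near that of all genes, and the 4 that fell in aak-2 o/e one not far above it. Medians of the peptide genes were 0.15 (flp) and 0.10 (nlp) in crh-1 null, and -0.31 and -0.27 in aak-2 o/e. The synaptic gene ric-4 passed in all 3 strains, at 0.39 in tax-6 null, 0.55 in crh-1 null and -0.66 in aak-2 o/e. In tax-6 null unc-13 (0.46) and snt-1 (0.42) also rose and unc-11 fell (-0.55), in crh-1 null rab-3 (0.66), unc-64 (0.60), unc-44 (0.37) and snt-1 (0.501) rose, and in aak-2 o/e unc-119 (-0.71), unc-64 (-0.54) and snb-1 (-0.40) fell. With each array centred on the neuron markers, a setting chosen after the data were seen, the medians in tax-6 null were 1.31 for flp and 1.15 for nlp genes, in crh-1 null -0.09 and -0.14, and in aak-2 o/e -0.12 and -0.08. Markers of other tissues and stages moved as well: in tax-6 null 13 of 14 oocyte and eggshell genes rose and 4 of 10 muscle genes fell, in crh-1 null 6 of 7 pharynx genes rose and 8 of 14 oocyte and eggshell genes fell, and in aak-2 o/e 28 of 29 sperm genes and all 6 adult-stage genes rose. Some epidermis and intestine markers also fell and others rose in tax-6 null, and the same held for epidermis markers in aak-2 o/e. The part of all these markers in the neuropeptide differences was not tested, and strain and developmental stage at harvest cannot be told apart.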

How the data were processed

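Per the labels' protocols, RNA of all pools was extracted together and labelled with the Affymetrix 3' IVT kit. The authors deposited log2 values; per the submitters' processing notes the tools were GCOS 1.4 and a GCRMA whose version is not stated. GCRMA corrects background by probe base content and normalizes between arrays, so differences of dim probe sets are compressed. With limma 3.58.1 in R 4.3.3, 1 mean per strain was fitted to all 12 arrays for 13396 probe sets with log2 of at least 4 on at least 3 arrays. Tests were two-sided, adjusted by Benjamini-Hochberg over those probe sets, and called at 0.05. Of several probe sets of a gene, that with the highest mean was used. Names come from the platform annotation: of 22625 probe sets 20766 had 1 symbol, 887 several and 895 none, and those with several were not named. Where all 3 arrays of 1 strain lay below 4, the fold is a lower bound computed against 4. Members, role groups and marker lists were chosen with earlier results of these data known. Values for each array are given for the members with the largest changes past the threshold whose arrays did not overlap (5 rises and 3 falls per family against WT, 3 each way between altered strains), for the role groups, and for members called in all 3 strains; of the pathway and neuron lists the 4 genes with the smallest adjusted p-values past the threshold are named (further genes of the processing, other neuropeptide, receptor, neuron and adult-stage lists were named after their values were seen), and other marker lists are given as counts. The number of arrays, 3 per strain, limits the precision, and whether p-values measure more than the spread between pools is unknown, since the labels say that pools were prepared on separate days but tie no replicate number to a day. Same-numbered arrays did not deviate together: 1 of 18 pairs had a correlation over 0.1 (range -0.249 to 0.138). The procedure was tested on simulated data. Alternatives covered normalization, filter, array weights, replicate block, strains fitted, probe set choice, threshold, and each array left out.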

Additional observations from a re-analysis of the deposited data

How the results depend on the processing

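The 3 comparisons of tax-6 null kept the counts of called flp and nlp genes within 1.5 times of the values given, under all alternatives tried, with no reversal. Leaving out each array in turn, called flp and nlp genes numbered 21 to 23 and 31 to 33 against WT, 20 to 23 and 31 to 34 against crh-1 null, and 23 to 23 and 34 to 35 against aak-2 o/e. Of the 54 members called against WT, 51 kept their call without each array, and of the 10 in aak-2 o/e, 6 did, while 0 of 6 did in crh-1 null. For crh-1 null against WT, called flp and nlp genes ranged over 0 to 9 and 0 to 9, for aak-2 o/e against WT over 0 to 12 and 6 to 15, and for crh-1 null against aak-2 o/e over 8 to 17 and 11 to 28. The highest counts of the last 3 comparisons came without tax-6 null replicate 1; for crh-1 null against WT, any 1 WT or crh-1 null array left out gave 0 flp and 0 to 2 nlp calls, and for aak-2 o/e against WT, there were 0 or 1 flp calls without any 1 array of WT, crh-1 null or aak-2 o/e, and 6 without tax-6 null replicate 2. In crh-1 null against WT, called flp genes (1 as given) were 0 without a filter, 8 with array weights, 6 with only the strains compared, 0 with the replicate block, 2 with probe sets averaged and 0 at an adjusted p of 0.01, and called nlp genes (5) were 3 after quantile normalization, 2 after median centring, 1 without a filter, 10 with array weights, 8 with only the strains compared, 2 with the replicate block and 0 at 0.01. In aak-2 o/e against WT, called flp genes (2) were 1 after median centring, 1 without a filter, 13 with array weights, 4 with a trended prior, 11 with only the strains compared and 0 at 0.01, and called nlp genes (8) were 14 with array weights and 4 at 0.01. In crh-1 null against aak-2 o/e, called flp genes (11) were 17 with array weights, 17 with only the strains compared and 5 at 0.01, and nlp genes (16) were 25 with array weights and 10 at 0.01. Centring on neuron markers, chosen after seeing the data, moved the median of all genes against WT to -0.20 in tax-6 null, -0.25 in crh-1 null and 0.05 in aak-2 o/e. It left 2 nlp calls in crh-1 null (0 higher, 2 lower) and 0 flp and 4 nlp calls in aak-2 o/e (1 higher, 3 lower). In crh-1 null against aak-2 o/e it left 3 flp (2 higher, 1 lower) and 8 nlp calls (4 higher, 4 lower). The centring shifts all genes of a comparison by the same amount, and there the medians were 0.06 for flp and 0.02 for nlp genes. Members with small positive differences there thus changed sign, among them nlp-8 (-0.025), nlp-11 (-0.0069), nlp-9 (-0.39) and nlp-57 (-0.42). The cause of this shift was not tested. The replicate block changed no other count by over 1.5 times.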

Other observations

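A probe set listed for both F59C6.18 and nlp-4 was not counted among the members. It read 9.06, 8.46 and 8.65 in tax-6 null, against 9.60, 9.88 and 9.72 in WT, and fell by 1.01 ± 0.18 (limma, adjusted p = 0.000611), opposite to most members. It did not pass in crh-1 null (-0.24, adjusted p = 0.414) or aak-2 o/e (0.08, adjusted p = 0.774).

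The epidermal peptide genes nlp-24 to nlp-34, kept out of the members, gave another pattern. Of 9 tested, 5 rose in crh-1 null with a median log2 change of 1.60, 3 rose in tax-6 null with a median of 0.76, and 1 rose in aak-2 o/e with a median of -0.08. Their arrays varied widely in tax-6 null, with medians relative to WT of -0.04, 0.59 and 1.36 on replicates 1, 2 and 3.

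Of the 62 members, 10 (16.1%) had the same value, to 4 decimals, on at least 3 arrays, beside 10.3% of all genes tested. For nlp-57 the value was shared by 8 arrays and for nlp-53 by 5, so for these genes a small spread between arrays is not a measured spread. Close to the filter, nlp-67 reached 4 on 3 arrays, nlp-62 on 4 and nlp-5 on 5, while nlp-52 did so on 2 and nlp-2 and nlp-68 on 1.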
